A study of Mus musculus with 11 samples.

Results

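Healthy kidney was compared with healthy lung across 18531 probes, chosen because each carried 1 gene symbol in the platform annotation and was detected (p below 0.05) on 2 or more of the 6 arrays of these organs. They were 53.1% of the 34885 probes with 1 symbol and stood for 11874 of 19057 genes; where a gene had several, the probe brightest on average was used. The 3 kidneys and 3 lungs were whole tissue of adult, untreated BALB/C mice, all labelled female, and the titles give them as organs of the same mice, H557, H563 and H565. The study, which also held obstructed kidneys and bleomycin-injured lungs, measured total RNA on 11 Illumina bead arrays. Values are log2 intensities, in which a difference of 1 is a 2-fold change, and they are always given in the order of mice H557, H563 and H565.

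The kidney is built of nephrons, in which a glomerulus filters blood and successive tubule segments take back solutes and water through segment-specific transporters, a task fuelled mainly by mitochondria. The lung exchanges gas across flat type 1 cells and a dense capillary bed, while cuboidal type 2 cells secrete surfactant and the airways carry secretory and ciliated cells. In RNA from whole tissue, fewer cells of a type and less RNA per cell cannot be told apart.

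Most genes differed between the organs. Of the 11874 genes tested, 8166 (68.8%) passed an adjusted p of 0.05 (limma, Benjamini-Hochberg over all genes), 3722 (31.3%) higher in kidney and 4444 (37.4%) higher in lung. Differences of 2-fold or more were found for 1999 genes (16.8%) in kidney and 2563 (21.6%) in lung, and of 16-fold or more for 238 and 201. All kidneys lay above all lungs for 4012 genes (33.8%), and all lungs above all kidneys for 4755 (40.0%). The 2 counts of calls depend on the scaling of the arrays: kidney-higher genes were 45.6% of calls here, 37.7% after median scaling and 66.4% in the intensities as the authors processed them. The median difference over all genes moved with it, from -0.11 to -0.28 and 0.33, so a small difference is best read against that median.

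**Figure D1:**
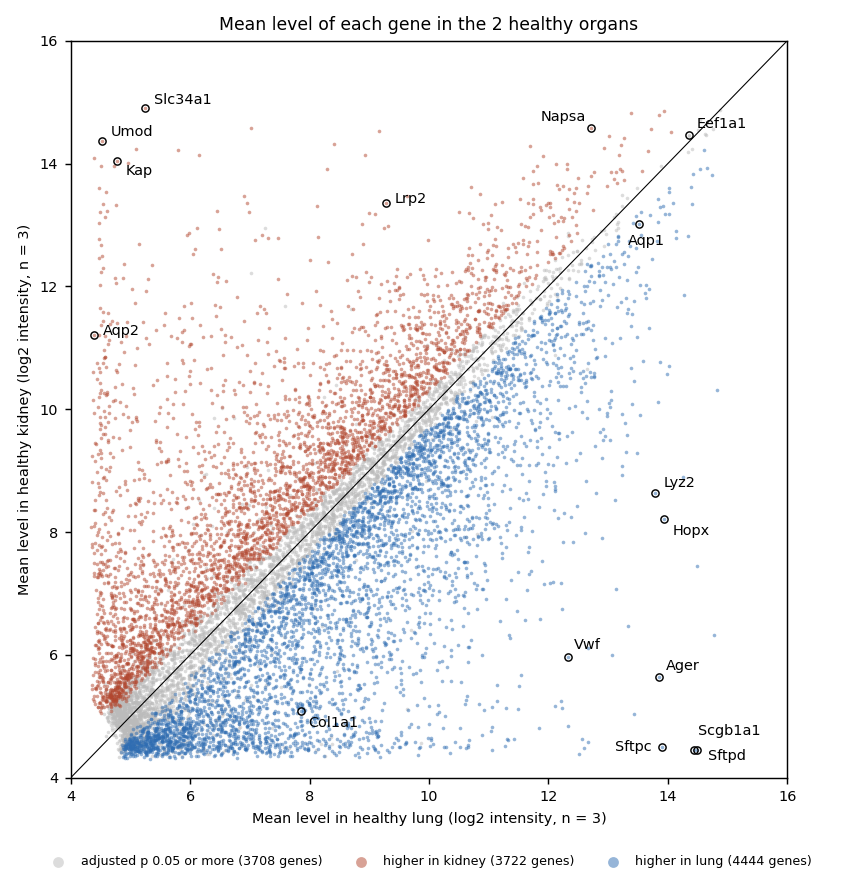
Mean level of each gene in healthy lung (x axis) and healthy kidney (y axis), both in log2 intensity over 3 arrays; colours mark the 3722 genes higher in kidney and the 4444 higher in lung, and the line marks equal levels. Umod and Slc34a1 lie at the kidney edge, Sftpd, Scgb1a1 and Sftpc at the lung edge, and Eef1a1 close to the line.

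Lung H565 stood apart from the other lungs. Across genes the kidneys correlated at r = 0.986 to 0.989 with each other and the lungs at 0.930 to 0.986, the lower values being those of lung H565. On this array 203 genes were at least 4-fold above the mean of the other lungs, against 81 on lung H557, 9 on lung H563 and 1 to 7 on any kidney. At least 4-fold below the mean of the other lungs were 99 genes on lung H557, 113 on lung H563 and 91 on lung H565. For lungs H557 and H563 that mean includes lung H565. A gene high on lung H565 alone can therefore count as low on both, and the 99 and 113 are not separate departures. The genes high on lung H565 included products of the liver: Apoa2, an apolipoprotein of plasma lipoproteins, was at 4.45, 4.44 and 14.51 in the lungs and 9.95, 8.84 and 7.87 in the kidneys, and 18 of 23 liver markers on the array were above background in lung H565, against 4 and 5 in the other lungs. The summed level of these markers was 162300 in lung H565, 1268 and 1127 in lungs H557 and H563, and 5953 to 15870 in the kidneys.

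Conversely, lungs H557 and H563 carried heart muscle transcripts that lung H565 mostly lacked. Of 19 heart markers on the array, 19, 18 and 8 were above background in the lungs and 3 in each kidney. Myh6, the atrial myosin heavy chain, was at 12.86, 11.94 and 6.06 in the lungs and 4.55, 4.46 and 4.49 in the kidneys. The atrial hormone Nppa was at 14.12, 10.79 and 4.69 in the lungs. Some secretory airway transcripts parted the lungs the same way: Bpifa1, an antimicrobial protein of the upper airway, was at 13.31, 11.82 and 5.06. Others did not, such as Scgb1a1 at 14.60, 14.25 and 14.46 and Cbr2 at 14.53, 14.50 and 14.46. The median of the club and secretory list was 11.12, 10.06 and 7.77 in the lungs. By contrast, the alveolar lists had nearly equal medians in the lungs, between 12.03 and 12.16 for type 1 markers and between 10.89 and 11.01 for type 2 markers. Without lung H565, 3646 genes were higher in kidney and 4519 higher in lung. Of the calls, 7734 were made in the same direction with and without it, 431 only without it and 432 only with it. The part of dissection in these differences was not tested.

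**Figure D2:**
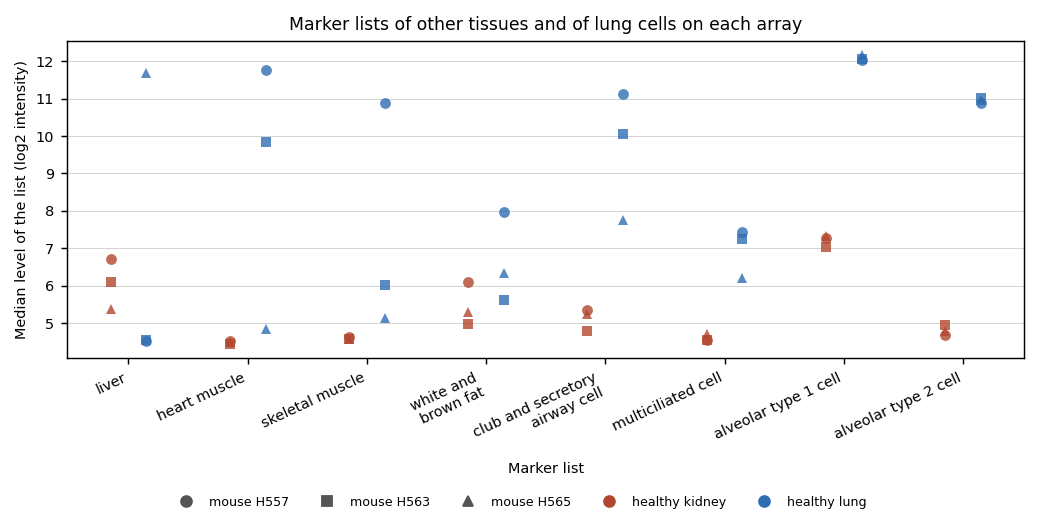
Median log2 level of the markers of other tissues and of lung cells on each array, with kidneys and lungs in separate colours and a symbol per mouse. Lung H565 has a liver median of 11.68, against 4.53 and 4.56 in the other lungs, while its heart median of 4.85 lies near the kidneys.

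Nephron genes were among those with the largest kidney differences. Umod, or uromodulin, is the protein that the thick ascending limb secretes into urine. Its levels were 14.24, 14.43 and 14.41 in the kidneys and 4.53, 4.54 and 4.50 in the lungs, where it was not above background. It was thus at least 703-fold higher in kidney (14.36 ± 0.11 against 4.52 ± 0.02, SD, n = 3; limma adjusted p = 7.92e-08). Such a bound is used wherever no array of the dimmer organ detected the probe. It divides the brighter mean by a floor, the average over those arrays of either the weakest signal detected on the array or the probe's own signal if that was greater. Genes detected on only 1 or 2 arrays of the dimmer organ, such as Slc34a1, Kap, Spink1, Klk1b26, Klk1, Fxyd2 and Aqp5, have their fitted difference instead. Their dimmer mean is partly background signal, so the size of the difference is less certain than its SE implies.

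The sodium-phosphate cotransporter of the proximal tubule, Slc34a1, stood at 14.93, 14.93 and 14.85 in the kidneys and 4.47, 6.40 and 4.87 in the lungs. The groups were far apart although lung H563 lay above the others, and the difference was 9.66 ± 0.47 (SE; limma adjusted p = 7.96e-06). Kap, an androgen-regulated protein of proximal tubule cells, was 9.27 ± 0.26 higher in kidney. Miox, which opens the ring of inositol in the tubule, was at least 531-fold higher, and Slc22a6, the organic anion transporter that takes drugs and urate from blood, at least 321-fold.

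Further genes with the largest kidney differences were secreted enzymes and inhibitors. Dnase1, an endonuclease released into urine, was at least 585-fold higher in kidney, and Guca2b, or uroguanylin, a peptide that promotes salt excretion, at least 298-fold. The tissue kallikreins Klk1b27 and Klk1b5 were at least 530-fold and 345-fold higher, Klk1b26 by 8.94 ± 0.21 and Klk1 by 8.58 ± 0.24. Kallikreins of this cluster are close in sequence, so a probe can take up the transcript of a neighbour. Hsd3b4, a steroid-metabolising enzyme, was at least 415-fold higher. The protease inhibitor Spink1 differed by 9.14 ± 0.37, with lungs at 4.67, 6.02 and 4.61, and the sodium pump subunit Fxyd2 by 9.06 ± 0.10.

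Proximal tubule lists were almost uniformly higher in kidney. All 16 organic anion and cation transporters tested passed the test in that direction, with a median difference of 5.22 against -0.11 for all genes. Of the 21 on the array, 16 were above background in each kidney and 6, 6 and 9 in the lungs. A gene detected in 1 organ alone passes the filter through that organ. Counts among tested genes, in this and the other lists, therefore lean to the organ where a list is detected. Slc22a12, the urate exchanger, was at 11.42, 11.74 and 11.51 in the kidneys and not above background in the lungs (at least 101-fold). Of 16 sugar and ion transporters, 14 were higher in kidney and 1 higher in lung (median 4.87), and of 15 amino acid transporters, 13 and 1 (median 2.67). Slc9a3, the apical sodium-proton exchanger, was at least 57.5-fold higher, Slc5a12, which takes up lactate with sodium, at least 90.1-fold, and Slc6a19, the carrier of neutral amino acids, at least 54.5-fold.

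The endocytic receptors of the proximal tubule followed the same direction, with 7 of 9 genes higher in kidney and 1 higher in lung (median 2.81). Cubn, or cubilin, was at 8.37, 8.36 and 8.36 in the kidneys and not above background in the lungs (at least 11.0-fold), and its partner Amn was 7.40 ± 0.12 higher. Lrp2, the megalin receptor that carries both, was at 13.42, 13.29 and 13.37 in the kidneys and also above background in the lungs at 9.16, 9.35 and 9.33, a difference of 4.08 ± 0.11. Pdzk1, a scaffold under the brush border, was at 4.33, 5.13 and 7.94 in the lungs; its difference was 8.43 ± 0.87 with all arrays and 9.51 without lung H565.

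Of 14 brush border enzymes and related proteins, 11 were higher in kidney and 2 higher in lung (median 3.45). Mep1a, a meprin metalloprotease, was at least 75-fold higher in kidney and the microvillar protein Vil1 at least 48.2-fold. The exceptions were peptidases that endothelial or other cells also make: Ace, the angiotensin-converting enzyme, was at 12.62, 12.64 and 12.42 in the lungs and 9.95, 9.91 and 10.01 in the kidneys, and Dpp4 differed by -1.01 ± 0.13. The water channel Aqp1, found in proximal tubule and in endothelium, differed by -0.49 ± 0.13 here, by -0.19 after median scaling and by 0.34 in the authors' processed intensities, so its direction depends on the scaling. Cltrn, or collectrin, which helps to place amino acid transporters in the brush border, was at 13.22, 13.12 and 13.27 in the kidneys and not above background in the lungs (at least 315-fold).

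Promoters, taken as 250 bases before to 50 after each gene start in RefSeq (GRCm38.p6), were available for 9580 of the genes tested and were searched on both strands for short motifs, comparing the 636 genes called 4-fold or more higher in kidney, the 884 called 4-fold or more higher in lung and all genes tested. The HNF4A letters CAAAGTCCA were in 1.26% of kidney-side promoters, 0.566% of lung-side and 0.428% of all tested (8, 5 and 41 promoters). Shares that rest on so few promoters are imprecise. The NKX2-1 letters CTCAAGTG were in 0.629%, 0.905% and 0.71% (4, 8 and 68 promoters). The shorter CACTTNA, which every NKX2-1 match contains on the other strand, was in 12.3%, 9.05% and 8.91%. TCAAGGTCA of the oestrogen-related receptors was in 0.157%, 0.339% and 0.271% (1, 3 and 26 promoters). TGTTTAC of FOX factors was in 3.62%, 3.62% and 2.67%, and TATAAA in 11.2%, 12.4% and 8.43%. The ETS letters CCGGAAG were less frequent on both sides, 7.86% and 4.64%, than among all genes tested, 16.6%.

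Downstream of the proximal tubule, all 13 thick ascending limb genes tested were higher in kidney (median 4.75). Of the 14 on the array, 13 were above background in each kidney and 6, 5 and 4 in the lungs. Slc12a1, the sodium-potassium-chloride cotransporter that furosemide blocks, was at 12.79, 12.67 and 12.88 in the kidneys and not above background in the lungs (at least 235-fold), and Bsnd, the barttin subunit of chloride channels, was at least 40.6-fold higher. Of 13 genes of the distal convoluted and connecting tubule, 10 were higher in kidney and 1 in lung (median 2.41). The thiazide-sensitive cotransporter Slc12a3 was at 10.54, 10.69 and 10.75 in the kidneys and above background in the lungs too, at 8.27, 8.29 and 8.19. The calcium-binding protein Pvalb was 5.71 ± 0.86 higher in kidney; lung H557, at 8.17, stood above the other lungs, at 4.76 and 5.11, and it was also the lung with the most skeletal muscle transcripts. Their summed level was 40740, 9092 and 612.6 in the lungs, Pvalb is made in fast muscle too, and the part of muscle in its lung value was not tested.

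Collecting duct genes were divided. Aqp2, the vasopressin-regulated water channel of principal cells, was at 10.92, 10.74 and 11.97 in the kidneys and not above background in the lungs (at least 79.3-fold), and Hsd11b2, which shields the mineralocorticoid receptor from cortisol-like steroids, was at least 25.8-fold higher. Of 15 principal cell genes, 10 were higher in kidney and 4 higher in lung (median 2.53). The 4 were the subunits of the epithelial sodium channel, Scnn1a (9.09, 9.11 and 9.06 against 11.76, 11.78 and 11.84), Scnn1b (difference -2.19 ± 0.19) and Scnn1g (-2.22 ± 0.14), and the matrix protein Npnt (-2.30 ± 0.24). This channel also drains fluid from the airspaces of the lung.

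Of 12 intercalated cell genes, 10 were higher in kidney and 1 in lung (median 1.86). The proton pump subunit Atp6v1b1 was at 6.28, 6.77 and 6.49 in the kidneys (at least 3.05-fold), and the carbonic anhydrase Car12 was at least 169-fold higher. Kit, a receptor of stem cell factor, was the member on the lung side, at 11.50, 11.78 and 11.73 against 7.08, 7.35 and 7.53.

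Podocyte genes were mostly not higher in whole kidney than in lung. Nphs1, or nephrin, which defines podocytes, was only slightly above background in kidneys H557 and H563 (5.72 and 5.84) and not in kidney H565 (4.75). It was at least 1.45-fold higher in kidney (limma adjusted p = 0.0145, and 0.0526 without kidney H557). Of 13 podocyte markers tested, 3 were higher in kidney and 8 higher in lung (median -1.36). The latter included Tcf21 (8.13, 8.20 and 8.43 against 10.60, 10.85 and 10.90), a transcription factor that lung fibroblasts also use, and the filament gene Nes (difference -2.81 ± 0.13). Among basement membrane genes, where 12 of 19 were higher in lung, Col4a3 and Col4a4, which build the network of the glomerular membrane, were 0.94 ± 0.30 and 1.24 ± 0.12 higher in kidney, and the laminin chain Lama1 at least 6.16-fold. Col4a3 lost its call whenever a kidney was left out (limma adjusted p from 0.0587 to 0.0710).

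Most endocrine genes of the kidney were higher there. Of 9 tested, 8 were higher in kidney and 1, Ace, higher in lung (median 1.61). Kl, the klotho coreceptor of FGF23, was at 12.12, 12.02 and 11.95 in the kidneys and not above background in the lungs (at least 140-fold). Pth1r, the parathyroid hormone receptor, differed by 6.27 ± 0.11 and Cyp24a1, which inactivates vitamin D, by 5.05 ± 0.20. Cyp27b1, which activates it, was close to background in the kidneys at 5.81, 5.10 and 5.57 (at least 1.51-fold).

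**Figure D3:**
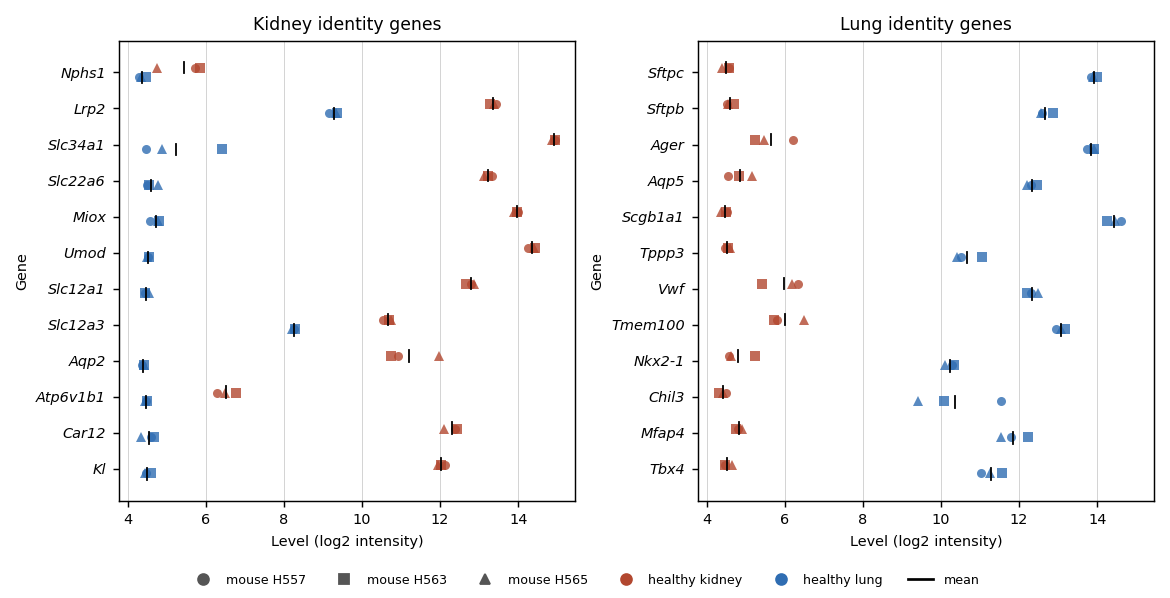
Log2 level of kidney and lung identity genes on each array, with a symbol per mouse, a colour per organ and a bar at each mean. The organs do not overlap for any gene shown; Nphs1 and Atp6v1b1 lie close to background in kidney, and Chil3 spreads from 9.40 to 11.54 among the lungs.

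Transcription factors parted the organs as well. Of 17 nephron and renal factors tested, 12 were higher in kidney and 3 higher in lung (median 2.27), and of 24 factors of lung epithelium and organ mesenchyme, 0 were higher in kidney and 21 higher in lung (median -2.50). Lhx1, a factor of nephron formation, was at least 31.3-fold higher in kidney, Tfap2b at least 29.3-fold and Pax8 at least 5.72-fold. Hnf4a, which drives proximal tubule and liver genes, was at 5.21, 4.64 and 7.86 in the lungs and differed by 5.39 ± 0.79, or 6.38 without lung H565. On the lung side, Nkx2-1, the factor of lung epithelium, was at 10.28, 10.34 and 10.09 against 4.56, 5.23 and 4.63, a difference of -5.43 ± 0.20. The mesenchymal factors Tbx4 and Foxf1 were at least 67.8-fold and 15.9-fold higher in lung.

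The Hox genes, which mark position along the body axis, showed an ordered pattern. Of 13 tested with paralogue numbers 1 to 6, 5 were higher in kidney and 4 higher in lung (median 0.21); of 3 with numbers 7 or 8, all were higher in kidney (median 3.94); and of 8 with numbers 9 to 13, 7 were higher in kidney and 0 higher in lung (median 3.82). Hoxd10 was at 9.79, 9.71 and 9.65 in the kidneys and not above background in the lungs (at least 28.1-fold), and Hoxc9 was at least 13-fold higher. Hoxa5, which acts in lung development, was at 10.75, 10.94 and 10.78 in the lungs and 9.38, 9.36 and 9.35 in the kidneys (difference -1.46 ± 0.10), and Hoxb5 differed by -1.54. Hoxc6 (at least 29.5-fold), Hoxd3 (at least 3.74-fold) and Hoxd4 (at least 6.27-fold) were on the kidney side despite their lower numbers.

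**Figure D4:**
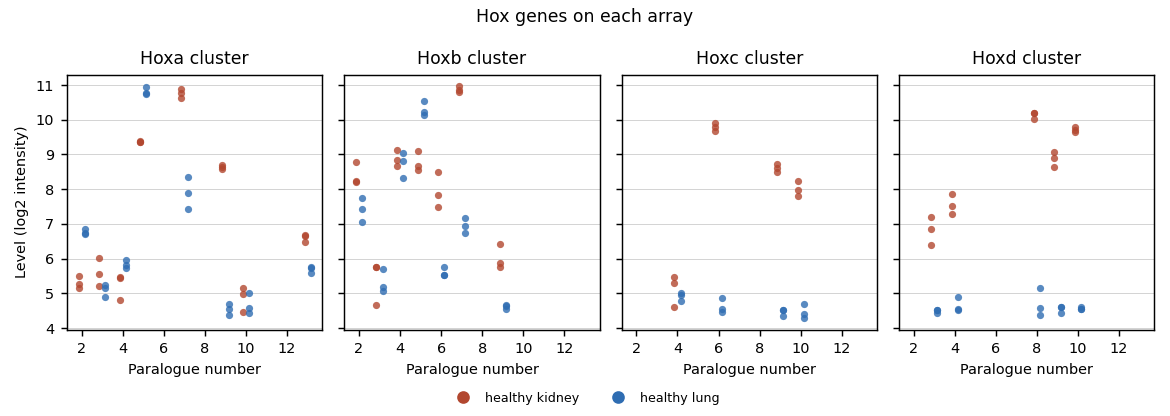
Log2 level of each Hox gene tested on each array, against its paralogue number and with a panel per cluster. From paralogue 7 upward the kidney arrays lie above the lung arrays for all genes but Hoxa10, whose groups overlap, whereas Hoxa5 and Hoxb5 are higher in lung.

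Surfactant and type 1 cell genes led the lung side. Sftpd, a surfactant collectin that binds microbes, was at 14.58, 14.46 and 14.43 in the lungs and 4.47, 4.48 and 4.43 in the kidneys, not above background, and was at least 628-fold higher in lung (limma adjusted p = 7.92e-08). Sftpc, a hydrophobic surfactant peptide of type 2 cells, was at 13.83, 13.99 and 13.89 and at least 418-fold higher. Sftpb was at least 177-fold, Sftpa1 at least 168-fold and the chemokine Cxcl15 at least 159-fold higher. Of 23 type 2 cell genes tested, 18 were higher in lung and 2 higher in kidney (median -4.58). The 2 were Napsa, an aspartic protease that processes surfactant protein B and is made in renal tubules too (14.60, 14.50 and 14.65 against 12.53, 12.80 and 12.81), and the adaptor Ank3 (difference 1.52 ± 0.12).

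Type 1 cell genes were on the lung side for 20 of 22 tested (median -4.39), the exceptions being Col4a3 and Col4a4. Ager, the receptor for glycated proteins that coats the thin alveolar wall, was at 13.73, 13.90 and 13.92 in the lungs and 6.21, 5.23 and 5.46 in the kidneys (difference -8.22 ± 0.25). The water channel Aqp5 differed by -7.47 ± 0.17 and the scaffold Akap5 was at least 164-fold higher in lung. Hopx and Pdpn, which are also made outside the lung, were above background in the kidneys and differed by -5.72 ± 0.17 and -4.60 ± 0.10.

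Club and ciliated cell genes were mostly higher in lung, and less evenly among the lungs. Scgb1a1, the secretoglobin of club cells, was at 14.60, 14.25 and 14.46 and at least 605-fold higher in lung, and Cyp2f2, which activates naphthalene, differed by -8.45 ± 0.24. Of 19 club and secretory genes, 14 were higher in lung (16 without lung H565) and 2 in kidney, namely Cyp4b1 (2.21 ± 0.16) and Pigr (1.03 ± 0.28; limma adjusted p = 0.0511 without kidney H565). Of 18 genes of multiciliated cells, 16 were higher in lung and 0 in kidney (median -3.94, and -4.54 without lung H565). The median of the 26 ciliated markers on the array was 7.43, 7.26 and 6.21 in the lungs. Tppp3, a tubulin-binding protein, was at least 44.0-fold higher in lung, whereas Foxj1, the ciliogenesis factor, had a difference of -0.31 ± 0.15 that did not pass with all arrays (limma adjusted p = 0.106) and did without lung H565 (-0.41, adjusted p = 0.0341). Of 6 basal and neuroendocrine airway genes tested, 0 were higher in lung and 1, the secretory granule chaperone Scg5, was higher in kidney (2.66 ± 0.25; list median -0.02).

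Promoters of the called multiciliated genes were also searched for GTTGCCA, a partial site for RFX factors, which drive cilium genes. It was in 4 of 13 promoters (30.8%), against 4.01% of all genes tested and 4.46% of all promoters of the table. On the kidney side and the lung side at 4-fold or more it was in 2.99% and 4.52% (19 and 40 promoters). A share of 13 promoters is imprecise, and action of RFX factors on them was not tested. The 4 are shown because they carry the motif and were chosen after their values were seen. The letters, found on either strand, are in capitals with 15 bases on each side, and each line reads 5′ to 3′ on the strand of its gene.
Mlf1: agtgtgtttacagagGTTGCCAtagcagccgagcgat
Cdhr3: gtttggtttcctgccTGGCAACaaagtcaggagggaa
Tekt1: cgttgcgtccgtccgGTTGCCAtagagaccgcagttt
Ccno: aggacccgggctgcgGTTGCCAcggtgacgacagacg

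They lie at chr3:67373977-67374013 for Mlf1, chr12:33092861-33092897 (minus strand) for Cdhr3, a cadherin of ciliated cells, chr11:72361876-72361912 (minus strand) for Tekt1, a tektin of the axoneme, and chr13:112987568-112987604 for Ccno, a cyclin of multiciliogenesis. Mlf1 was at 10.62, 9.96 and 7.92 in the lungs, Cdhr3 at 9.87, 9.55 and 7.73 and Tekt1 at 8.97, 8.93 and 7.08, each lowest in lung H565 and not above background in any kidney. They were at least 19.7-fold, 14.5-fold and 8.75-fold higher in lung, and Ccno, above background in 1 kidney, differed by -0.99 ± 0.28.

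Endothelial genes were much higher in lung. Of 20 lung capillary genes tested, 19 were higher in lung (median -3.05), and of 23 endothelial and lymphatic genes, 18 were higher in lung and 1 in kidney (median -2.62). The latter was Prox1, a lymphatic factor, whose call was lost without kidney H563 or H565 (limma adjusted p = 0.0524 and 0.0540). Vwf, the platelet-binding protein of endothelium, was at 12.31, 12.20 and 12.47 in the lungs and 6.34, 5.40 and 6.18 in the kidneys (difference -6.35 ± 0.25). Cdh5, the cadherin of endothelial junctions, differed by -5.05 ± 0.12 and Tmem100, a capillary membrane protein, by -7.07 ± 0.22. Lyve1, a hyaluronan receptor of lymphatics and some macrophages, was at least 43.0-fold higher. Of 16 genes known from kidney endothelium, 7 were higher in kidney and 8 in lung.

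Stromal genes were likewise higher in lung. All 12 elastic fibre genes tested were higher there (median -2.99), as were 15 of 20 interstitial matrix genes (1 higher in kidney), 15 of 22 smooth muscle and pericyte genes (2 in kidney) and 17 of 20 fibroblast and mesothelial genes (1 in kidney). Mfap4, a microfibril-associated protein, was at least 100-fold higher in lung. Eln, or elastin, was at 8.51, 8.57 and 8.25 against 5.04, 4.45 and 5.15, a difference of -3.57 ± 0.21, and Sparc, which binds collagen, differed by -3.32 ± 0.12. Col1a1, the main fibrillar collagen chain, was at 7.91, 7.86 and 7.81 in the lungs and at 4.71, 4.59 and 5.95 in the kidneys. Rgs5 (1.72 ± 0.33) and Kcnj8 (0.74 ± 0.17), both pericyte genes, were higher in kidney.

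**Figure D5:**
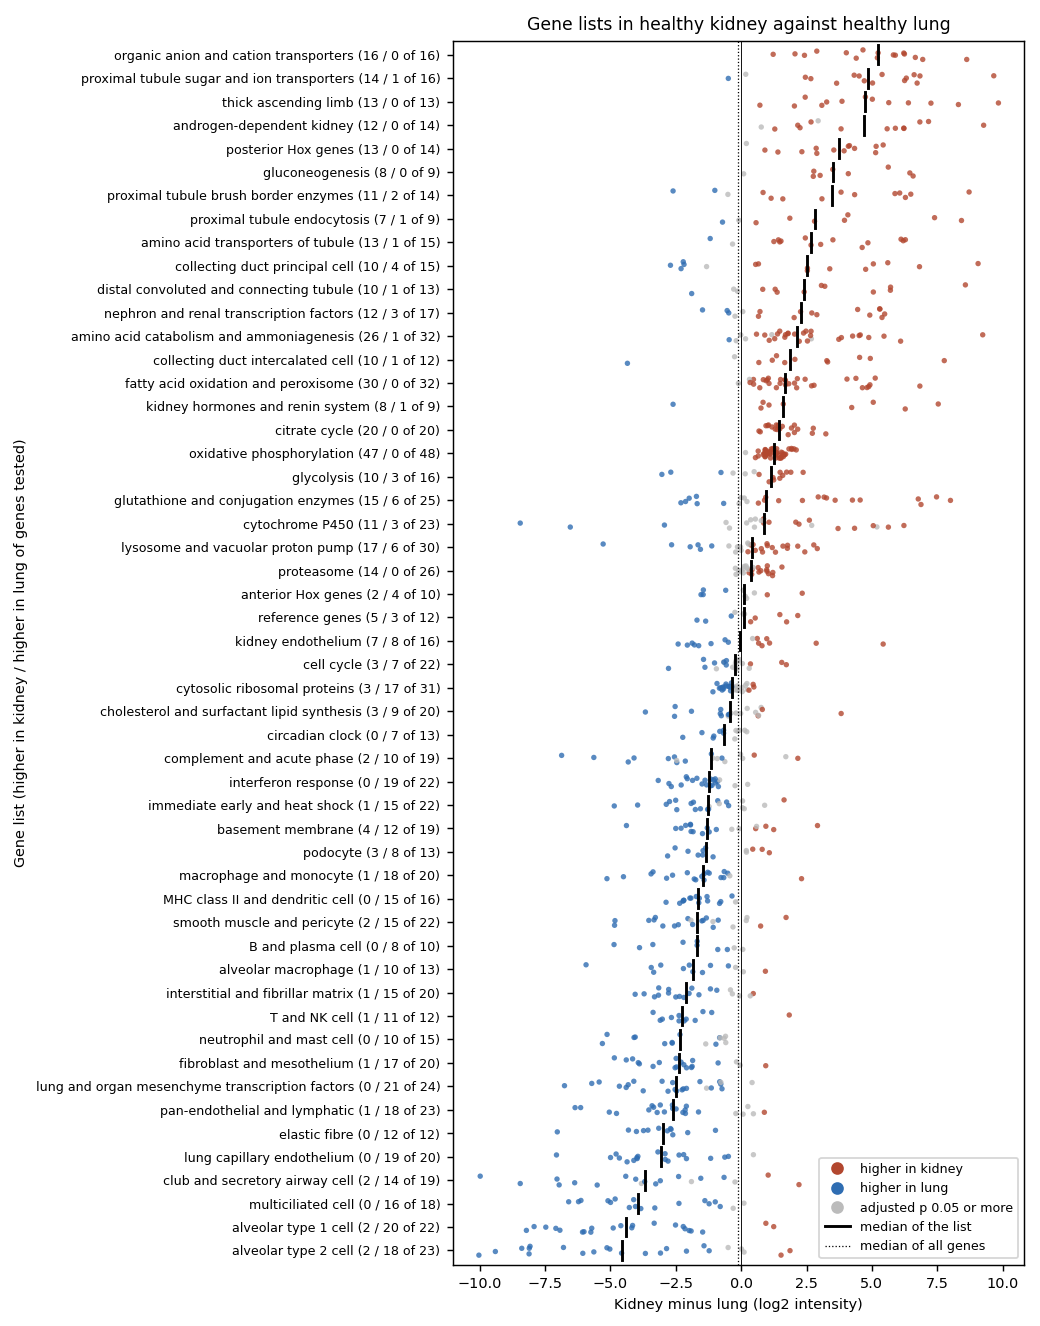
Kidney minus lung difference, in log2 intensity, of every tested member of each gene list with 8 or more tested members, leaving out other tissues; black bars are list medians, the dotted line is the median of all genes, and the counts in brackets are members higher in kidney and in lung. Tubule transport and energy metabolism lie on the kidney side, and alveolar, club, ciliated, pan-endothelial, lung capillary, stromal and immune lists on the lung side, while kidney endothelium lies near 0.

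Immune genes were mostly higher in lung in each cell class listed. Counts of genes higher in lung were 18 of 20 for macrophages and monocytes (median -1.46), 10 of 13 for alveolar macrophages, 15 of 16 for MHC class II and dendritic cells (median -1.67), 11 of 12 for T and NK cells, 8 of 10 for B and plasma cells and 10 of 15 for neutrophils and mast cells. Lyz2, a lysozyme that type 2 cells also make, was at 13.73, 13.78 and 13.83 against 8.51, 8.47 and 8.95. Chil3, a chitinase-like protein of alveolar macrophages, was at 11.54, 10.09 and 9.40 in the lungs and not above background in the kidneys (at least 35.4-fold). H2-Ab1, an MHC class II chain, differed by -2.19 ± 0.14, and Fcmr, the IgM receptor of B cells, was at least 11.3-fold higher in lung. On the kidney side stood Fcgr2b, an inhibitory Fc receptor (2.31 ± 0.16), and Cd8b1, a T cell coreceptor chain whose probes disagreed: the brighter gave 1.84, another gave -2.69, and their mean -0.43. Plet1, listed for alveolar macrophages, was 0.93 ± 0.33 higher in kidney (limma adjusted p = 0.0417), a call lost with the mouse as a block (adjusted p = 0.0513) and when any 1 lung was left out (0.0732 to 0.111).

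Neutrophil genes varied among the lungs: S100a9, a calprotectin subunit, was at 12.28, 9.75 and 9.90, and Lcn2, lipocalin-2, at 10.73, 9.40 and 9.43, against kidneys at 4.99 to 6.03 for S100a9. All 11 platelet genes tested were higher in lung (median -2.93), led by Ppbp, a platelet chemokine, at least 21.05-fold. Of 8 red cell genes, 3 were higher in kidney and 3 higher in lung (median 0.18), near the shares of all genes, 31.3% and 37.4%. The summed level of the 10 on the array was 14400, 16210 and 20700 in the kidneys and 33400, 33710 and 33130 in the lungs. Alas2, the first enzyme of haem synthesis in red cells, differed by -3.45 and the globin gene Hba-a1 by -0.93, the latter losing its call in the authors' processed intensities (-0.25), while Slc4a1, an anion exchanger of red cells and of intercalated cells, was 1.19 higher in kidney. Of 22 interferon response genes, 19 were higher in lung and 0 in kidney (median -1.25), among them Ifit3 (-2.67 ± 0.21) and Gbp2 (-2.76 ± 0.19). Among complement and acute phase genes, 10 of 19 were higher in lung and 2 in kidney. Hp, or haptoglobin, differed by -6.87 ± 0.29 and C6 was at least 14.4-fold higher in lung, whereas Cfb was 2.17 ± 0.59 higher in kidney and varied among the lungs (6.85, 5.82 and 8.25; limma adjusted p = 0.0536 without kidney H563).

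Genes of mitochondrial metabolism were almost all higher in kidney. Of 48 oxidative phosphorylation genes listed and tested, 47 were higher in kidney and 0 in lung, with differences from 0.17 to 2.11 (median 1.25). Cox4i2, a complex IV subunit listed with smooth muscle and pericyte genes instead, was at least 18.6-fold higher in lung. ND4 and CYTB of the respiratory chain lay within 1.5-fold here. In the authors' processed intensities they were called higher in kidney (0.81 and 0.68). Cyc1, a subunit of complex III, was at 12.32, 12.23 and 12.12 against 10.16, 10.08 and 10.38, and Cycs, cytochrome c, differed by 2.11 ± 0.18. All 20 citrate cycle genes were higher in kidney (median 1.45), with Suclg2, a succinate-CoA ligase subunit, at 3.24 ± 0.21. Among fatty acid oxidation and peroxisome genes, 30 of 32 were higher in kidney (median 1.69), among them Ehhadh, the peroxisomal bifunctional enzyme (4.39 ± 0.15), and Acsm3, an acyl-CoA synthetase (6.83 ± 0.48).

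Gluconeogenesis and amino acid breakdown, which the kidney shares with the liver, gave larger differences that depend in size on the lung with liver transcripts. Of 9 gluconeogenesis genes, 8 were higher in kidney, with a median of 3.50 and of 4.54 without lung H565. Pck1, the rate-limiting cytosolic carboxykinase, was at 7.74, 7.85 and 7.45 against 4.54, 4.30 and 5.87 (2.78 ± 0.41, or 3.23 without lung H565). Of 32 genes listed under amino acid catabolism, 26 were higher in kidney and 1 in lung. Without lung H565 the count higher in kidney was 29. The list also holds Miox, which acts on inositol and has its largest difference. Prodh, proline dehydrogenase, differed by 2.48 ± 0.15. The glycine conjugation enzyme Glyat was at 4.66, 5.10 and 10.94 in the lungs and differed by 6.58 ± 1.59, or 8.62 without lung H565.

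Glycolysis genes were divided, with more of them higher in kidney. Of 16 genes, 10 were higher in kidney, among them Tpi1 (1.90 ± 0.12), Pgk1 (1.74 ± 0.09) and Gapdh (1.48 ± 0.18), and 3 higher in lung: Hk3, a hexokinase of blood cells (at least 4.17-fold), the neuronal and leukocyte glucose carrier Slc2a3 (-3.03 ± 0.20) and Pkm (-0.77 ± 0.15, and -0.17 with no call in the authors' processed intensities). Detoxification enzymes were also split. Of 25 glutathione and conjugation genes, 15 were higher in kidney and 6 in lung, and of 23 cytochrome P450 genes, 11 and 3. Gss, glutathione synthetase, differed by 4.55 ± 0.17, and Cyp2a4, a steroid hydroxylase, was at least 40.1-fold higher in kidney. Cyp2b10 was at 12.44, 12.83 and 12.70 in the lungs and 5.96, 7.14 and 5.26 in the kidneys (-6.54 ± 0.45). Of 20 cholesterol and surfactant lipid genes, 3 were higher in kidney and 9 in lung (median -0.42, and 0.14 in the authors' processed intensities). Cyp51 of cholesterol synthesis, listed among the P450 genes (4.34 ± 0.17), and Chpt1, a choline phosphotransferase (3.82 ± 0.15), were higher in kidney, and Lpcat1, which remodels surfactant phosphatidylcholine, at least 7.67-fold higher in lung.

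Some genes differed little between the organs. The 95% interval of the difference lay within 1.5-fold either way for 1708 genes (14.4%). Among them, Eef1a1, a translation elongation factor, was at 14.48, 14.45 and 14.45 in the kidneys and 14.33, 14.41 and 14.33 in the lungs, a difference of 0.10 ± 0.09. The ferritin chain Fth1 had equal means of 14.87 ± 0.06 (SD, n = 3), but this equality is set by the normalisation: quantile normalisation gives equal ranks equal values, and the probe ranked 3, 6 and 1 among all probes in the kidneys and 1, 6 and 3 in the lungs. Its raw intensities were 32214, 31372 and 30707 in the kidneys and 28005, 28185 and 26719 in the lungs, all kidneys above all lungs. Rpl41, Rpl23, ND4, CYTB, Ubb-ps and the methyltransferase Inmt completed the 8 brightest. For Rpl23 and Inmt this holds for the brightest probe alone: other probes of Rpl23 were called in opposite directions (1.17 and -0.71), and the mean of the Inmt probes gave -0.61 (limma adjusted p = 0.000999). Their differences lay between -0.10 and 0.28 after median scaling but between 0.43 and 0.81 in the authors' processed values, where the median of all genes was 0.33. Of 31 ribosomal protein genes, 17 were higher in lung and 3 in kidney, with a median of -0.36 that turned to 0.42 in those intensities. Of 26 proteasome genes, 14 were higher in kidney and 0 in lung (median 0.36). Lysosomal genes were mixed, with 17 of 30 higher in kidney, such as Neu1 (2.78 ± 0.10) and Glb1 (2.91 ± 0.13), and 6 higher in lung, such as Npc1 (-1.95 ± 0.11). The lowest difference of that list, -5.28, was that of Ctsa, another probe of which gave 2.68.

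Of 12 reference genes in common use, 5 were higher in kidney and 3 in lung (median 0.11), a share called close to the 68.8% of all genes; Hprt, Ppia, Rplp0 and Eef1a1 did not pass. Gapdh was at 13.08, 12.87 and 13.11 in the kidneys and 11.90, 11.25 and 11.48 in the lungs. B2m differed by -1.69 ± 0.19, with 11.51, 11.55 and 11.86 against 12.99, 13.39 and 13.61, and Gusb by 2.16 ± 0.12. Actb differed by -1.36 ± 0.13, but its probes disagreed, and the mean of its probes gave 0.15. Of 4561 genes with several probes kept, 344 had probes called in opposite directions. The 5 most clearly opposed were Cd8b1, Usp10 (1.97 and -2.57), Prkar1a (1.55 and -1.29), Ctsa (2.68 and -5.28) and Prkd3 (1.55 and -1.02).

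Genes that respond within minutes to hours were mostly higher in lung. Of 22 immediate early and heat shock genes, 15 were higher in lung and 1, Hsph1, in kidney (median -1.27). Klf2, a factor of endothelium under flow, was at 12.39, 11.84 and 11.85 against 7.50, 6.74 and 7.27, and Jun differed by -2.74 ± 0.15. Of 13 clock genes, 7 were higher in lung and 0 in kidney, with Per1 at -2.23 ± 0.18. No label gives the time or order of dissection, and their part in these differences was not tested.

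The mice were labelled female, but Y-linked Eif2s3y was above background on all 6 arrays, at 9.19, 9.06 and 8.84 in the kidneys and 9.54, 9.19 and 9.23 in the lungs, and so was Y-linked Kdm5d (5.68 to 6.47). Xist, the transcript of the inactive X chromosome, was above background on none (4.40 to 5.10). Of 14 genes known to depend on androgen in mouse kidney, 12 were higher in kidney than in lung (median 4.70), among them Kap and Cyp2j13 (at least 108-fold), and of 7 known to be biased to females, 5 were (median 2.09). A comparison between organs does not measure sex, and whether the labels hold was not tested.

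The organ difference was also fitted in the injured organs, 2 obstructed kidneys and 3 bleomycin-injured lungs, on arrays that the healthy comparison does not use; for this, all 11 arrays were normalised together, so healthy values differ slightly from those above. Fitted differences of genes not above background in 1 organ are not fold changes. Of 11874 genes, 5353 (45.1%) passed between fibrotic kidney and fibrotic lung. Of the 3722 genes higher in healthy kidney, 1711 (46.0%) were called in the same direction there and 387 (10.4%) in the opposite one; of the 4444 higher in healthy lung, 1715 (38.6%) and 445 (10.0%). The endothelial gene Vwf kept a similar size, -6.32 between the healthy and -5.90 between the injured organs, and Lrp2 gave 4.01 and 3.79. Kap gave 9.37 and 6.68, a change of 2.69 (limma adjusted p = 0.00239). Scgb1a1 gave -10.1 and -3.09 (limma adjusted p of the change = 4.89e-06), with 12.48 and 11.35 in the obstructed kidneys against 4.37 to 4.52 in the healthy ones and 14.95 to 15.07 in the injured lungs. Sftpc, at 9.23 and 7.75 in the obstructed kidneys and 4.38 to 4.59 in the healthy ones, moved the same way. The part of lung RNA in the obstructed kidney samples was not tested.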

How the data were processed

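The 6 arrays were grouped by disease state, and the mouse was taken from the titles. The deposited table holds, per the file headers, the authors' raw bead intensities and detection p-values for 45281 probes; the authors' processed intensities are a straight line of them on each array. Per the labels' protocols, Trizol was used to isolate total RNA, a Bioanalyzer to assess it and an Ambion MessageAmp kit to make biotinylated cRNA. The submitters' processing notes name GenomeStudio 5.0. Of the probes, 34885 had 1 symbol, 18 several and 10378 none; 34807 were found in the reference and 0 symbols changed.

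Intensities were background-corrected and quantile normalised with neqc in limma 3.58.1 (R 4.3.3), using detection p-values to infer the negative controls and adding an offset of 16. Between 14465 and 15117 members were above background in a kidney and between 16487 and 16521 in a lung. Differences are limma's (lmFit, eBayes; 4 residual and 2.48 prior degrees of freedom), with Benjamini-Hochberg adjusted p-values over 11874 genes. With 3 arrays per organ the number of arrays limits the precision. A mean has its SD, a difference its SE. The scripts were tested on simulated data. No slide or scan date was at hand, so neither was tested as a batch.

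Titles and design text place both organs in the same 3 mice, while the descriptions number the mice separately; the titles were followed. Deviations from the organ means correlated at -0.08, 0.02 and -0.12 within a mouse (H557, H563, H565). The mouse as a block is an alternative.

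Members, lists and tests were chosen with earlier results of these data known. Genes were named as the 15 largest called differences per organ without overlap, the 3 smallest p and the largest difference of each list, list members called against the majority, marker genes, the 8 brightest alike genes and 5 genes with opposed probes. Clone names were passed over. Apoa2, Nppa, Bpifa1, Kdm5d, the Hox genes Hoxb5, Hoxd3, Hoxd4 and Hoxa10 and the genes shown for a motif fall outside this rule and were chosen after their values were seen. Promoters come from RefSeq (GRCm38.p6), searched for 8 motifs. A result on an item withheld for evaluation is not reported here.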

Additional observations from a re-analysis of the deposited data

Results flagged for a closer look

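The kidney-lung difference was not the same on the healthy and the fibrotic arrays. For 5050 of 11874 genes (42.5%) it differed between them in a test of that change (limma, adjusted p under 0.05), and these included 4318 (52.9%) of the genes called between the healthy organs. The healthy difference that selected the called genes is itself part of the tested change. Their higher share is therefore partly set by that selection and is not a separate result. Scgb1a1, the club cell secretoglobin, differed by -10.1 between the healthy and -3.09 between the injured organs, with the obstructed kidneys at 12.48 and 11.35 and the healthy kidneys, not above background, at 4.37 to 4.52. The part of lung RNA in the obstructed kidney samples was not tested. Umod, at 9.97 and 8.01, did not pass (adjusted p = 0.265); its injured lungs read 9.19, 5.74 and 4.46, so its injured-side value moves with the highest of them. With 2 obstructed kidneys, the injured side rests on few arrays. The highest raw intensity was 45197 to 45990 on the injured lung arrays, against 28005 to 30091 on the healthy lungs and 30707 to 35050 on the kidneys. The part of this array difference in the change was not tested.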

How the results depend on the processing

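The number of genes higher in kidney stayed within 1.5 times of 3722 under all alternatives run, and lay between 3397 and 3646 when an array was left out; the number higher in lung lay between 3967 and 4519. With the mouse as a replicate block, 3535 genes were higher in kidney and 4206 in lung, and the paired fit moved neither count by over 1.5 times. Of the list counts it moved 3 by more: fat genes higher in lung from 3 to 5, female-biased kidney genes higher in lung from 1 to 2 and alveolar macrophage genes higher in kidney from 1 to 0. In the authors' processed intensities, 5550 genes were higher in kidney and 2806 in lung. Genes within 1.5-fold numbered 4960 without background correction, 3497 with an offset of 50 and 7996 with no filter. Among list medians larger than their spread among arrays, 3 turned sign in the authors' processed intensities. They were cholesterol and surfactant lipid synthesis (0.14), ribosomal proteins (0.42) and sex-linked genes (0.24). Aqp1 (0.34), Bhlha15 (0.17), Oat (0.27) and Ywhaz (0.45) turned sign there too. Sign changes of smaller list medians were not counted, such as that of the liver list, -0.17 with all arrays and 2.17 without lung H565. With the mean of all probes of a gene, Cd8b1 (-0.43) and Actb (0.15) turned. Of 272 named genes called, 237 kept direction and call in every alternative that tested them. A stricter detection filter (p below 0.01 on all arrays of either organ) left some named genes untested. The cause of these changes was not tested. Probes near background limit the low end: 288 genes were above background in all kidneys and no lung, and 1007 in all lungs and no kidney.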
